A study of Rattus norvegicus with 24 samples.

Results

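The AP-1 transcription factors Fos, Fosl2, Jun, Junb and Jund were followed in whole rat brain after repeated exposure to the inhaled anaesthetics halothane and isoflurane. They were chosen by gene symbol: every probe set of the values table whose platform annotation gives Fos, Fosl2, Jun, Junb or Jund was taken, which made 12 probe sets of the 8799 in the table. Fos had 3 of them, Fosl2 had 2, Jun had 4, Junb had 2 and Jund had 1. Each probe set is a group of short oligonucleotides on a single-colour array, and its signal is a linear intensity that the authors scaled so that all arrays have nearly the same average.

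The study used 24 arrays of total RNA, with 1 array for each sample. Exposed groups of 3 breathed 0.8% halothane for 5 exposures, 0.8% halothane for 10 exposures, 1.0% isoflurane for 5 exposures or 1.0% isoflurane for 10 exposures. An exposure lasted 90 min, 2 were given each day with 3 h between them, and the course took 2.5 days for 5 exposures and 5 days for 10. The 12 control samples came from rats that had halothane for 3 min, and perfusion with ice-cold saline followed, so no group was without halothane or another inhaled agent. The sources used here do not give strain, sex, age or the time from the last exposure to collection. Separate animals for the replicates are not stated. The p-values therefore set group differences against the spread among these samples only, and part of that spread may be technical.

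AP-1 is a dimer of basic leucine zipper proteins that binds DNA at sites close to TGACTCA. Jun proteins can pair with each other or with Fos proteins, whereas Fos proteins need a Jun partner. In brain, Fos and Junb are classic fast activity genes: synaptic input and calcium entry switch on their transcription within minutes, through kinases that act on the factors SRF and CREB, and the transcripts decay quickly. Jun is in addition a target of the JNK stress kinases, Fosl2 encodes a slower Fos relative, and Jund is transcribed steadily and is often described as opposing growth.

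In the rat assembly GRCr8, RefSeq places Fos at chr6:110852188-110855054, Fosl2 at chr6:30017952-30039269, Jun at chr5:115009900-115012993, Junb at chr19:40081126-40082910 and Jund at chr16:18768093-18769771. The promoters of Junb and Jund are shown because these genes stand for the activity-driven and the steady member of the family, and because Junb has the lowest p of the members below. Each runs from 250 bases before the RefSeq gene start to 50 bases after it, 5′ to 3′ on the gene's own strand, and is credited to RefSeq on GRCr8.
Junb promoter, chr19:40080876-40081175, plus strand, capitals mark the CCAAT box and the TATA box: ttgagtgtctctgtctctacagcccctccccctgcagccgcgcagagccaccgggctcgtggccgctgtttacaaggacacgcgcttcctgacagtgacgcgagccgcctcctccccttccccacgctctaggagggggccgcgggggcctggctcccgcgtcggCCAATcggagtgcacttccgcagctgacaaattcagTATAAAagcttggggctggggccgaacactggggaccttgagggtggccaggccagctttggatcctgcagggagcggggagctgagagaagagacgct
Jund promoter, chr16:18769722-18770021, minus strand, capitals mark the CREB and ATF site, the CCAAT box and the GC box read on either strand: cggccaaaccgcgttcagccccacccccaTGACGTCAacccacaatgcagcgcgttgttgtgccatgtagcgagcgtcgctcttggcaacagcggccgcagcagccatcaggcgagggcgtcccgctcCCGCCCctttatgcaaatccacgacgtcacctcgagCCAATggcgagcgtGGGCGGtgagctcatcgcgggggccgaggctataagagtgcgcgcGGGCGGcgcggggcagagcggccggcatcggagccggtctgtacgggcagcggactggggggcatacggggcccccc

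The search covered 6 motifs on both strands. They were the AP-1 site (TGACTCA), the CREB and ATF site (TGACGTCA), the CArG box bound by SRF, the TATA box (searched as TATAAA), the box that carries the letters CCAAT, and the GC box (searched as GGGCGG). Among 33469 RefSeq promoters of the same length, 4.63% held the AP-1 site, 1.83% the CREB and ATF site, 1.64% a CArG box, 14.2% the TATA box, 37.5% the CCAAT box and 33.1% the GC box. The Junb window held a CCAAT box and a TATA box, at bases 166 to 170 and 202 to 207 of the line above. The Jund window held a CREB and ATF site at bases 30 to 37, a CCAAT box and 3 GC boxes. The Fosl2 window, chr6:30039220-30039519 on the minus strand, held 2 GC boxes. No promoter window was available for Fos or Jun, so their promoters were not searched. A match is a stretch of letters, not a measured binding site, and no 2 of these matches overlapped.

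The 2% trimmed mean of the signals was between 150.1 and 150.2 on all 24 arrays. Of 9 listed neuronal markers of the labelled tissue, 7 were measured. Their averages in controls ran from 154 for Syt1 to 3300 for Thy1, with Snap25 at 2877, and the median of all signals was 58.9. Probe sets for bacterial RNA, a control that is added to the samples, split the arrays into 2 sets: 9 arrays were high (controls 1, 3, 10, 11 and 12 and replicate 3 of each exposed group) and 15 were low. High and low arrays differed at 20.0% of the 7389 probe sets tested, with the 5 groups in the model, so values within each spike-in level stand beside the results they touch. Each of the 4 exposed groups held 1 high and 2 low arrays, and the controls held 5 high and 7 low.

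No member passed the test in any of 10 comparisons. Signals were tested with limma on the log2 scale over 7389 probe sets, among them all 12 members, with adjusted p under 0.05 as the threshold. The count was 0 of 12 after 10 halothane exposures, where 0.0406% of all probe sets passed, and 0 of 12 after 10 isoflurane exposures, where 0% passed. It was 0 of 12 after 5 halothane exposures against a background of 0.0135%, and 0 of 12 after 5 isoflurane exposures against 0%. With both agents joined after 10 exposures it was 0 of 12 against 0.122%. At an unadjusted p under 0.05, members numbered 3 of 12 after 10 halothane exposures (7.52% of all probe sets), 2 of 12 after 10 isoflurane exposures (9.05%), 2 of 12 after 5 halothane exposures (3.53%), 0 of 12 after 5 isoflurane exposures (2.14%) and 4 of 12 after 10 exposures of either agent (12.7%). Across all 4 exposed groups joined the counts were 0 of 12 (0%) by adjusted p and 4 of 12 (8.44%) by unadjusted p. For a group of 3 against the controls, the 95% confidence interval reached 0.41 to either side of a log2 difference at the median probe set, which limits what these arrays could show.

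Junb was lower after 10 exposures of either agent than in controls, and close to controls after 5. Its main probe set (X54686cds_at; main means the highest mean signal of a gene's probe sets) had signals of 103.3, 76.8 and 78.6 after 10 halothane exposures and 83.8, 94.5 and 101.3 after 10 isoflurane exposures. It had 112.1, 147.6 and 133.3 after 5 halothane exposures and 167.9, 110.0 and 123.2 after 5 isoflurane exposures, and the 12 controls ran from 96.1 through a median of 126.9 to 168.0. In each 10-exposure group 2 of 3 arrays lay below the lowest control, and the remaining array lay just above that control.

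The mean Junb signal was 86.2 ± 14.8 after 10 halothane exposures and 93.2 ± 8.82 after 10 isoflurane exposures (SD, n = 3 each), against 132.8 ± 22.7 in controls (SD, n = 12). After 5 exposures it was 131 ± 17.9 with halothane and 133.7 ± 30.3 with isoflurane. On the log2 scale Junb differed from controls by -0.62 ± 0.16 (SE) after 10 halothane exposures (limma p = 0.000856, adjusted p = 0.224) and by -0.50 ± 0.16 after 10 isoflurane exposures (p = 0.00534, adjusted p = 0.365). Joined, the 10-exposure groups differed from controls by -0.56 ± 0.13, a fold of 0.680 with p = 0.000177 and adjusted p = 0.0697. Its rank by p was 18 of 7389, with 9 probe sets past the threshold. The comparisons with each agent share the same 12 controls. In whole brain, fewer cells of a type and less RNA per cell cannot be told apart.

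The difference at the main Junb probe set had the same direction at both spike-in levels. After 10 exposures of either agent it was -0.54 among low arrays (adjusted p = 0.213) and -0.59 among high arrays. The high value rests on 1 array per agent (78.6 and 101.3), in a fit chosen after seeing the data. A fit that held the spike-in level as a block gave -0.56 with adjusted p = 0.0454. High and low arrays themselves differed by 0.017 for this probe set. Without control 7, the control with the lowest Junb signal, the difference was -0.60 and the adjusted p was 0.0412, and with array weights they were -0.55 and 0.0430, so the call changed with 1 array, the block and the weights.

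The second Junb probe set (rc_AA891041_at) was more scattered. Its signals were 70.5, 18.2 and 82.5 after 10 halothane exposures and 28.7, 50.8 and 73.2 after 10 isoflurane exposures, against controls between 17.6 and 146.1 with a median of 74.05. The groups overlapped throughout. Its differences from controls were -0.54 in both 10-exposure groups with an SE of 0.46, and the error was nearly as large as the difference. Unlike the main probe set, it was higher on high than on low spike-in arrays, by 0.59 ± 0.28 (SE, limma p = 0.0470, adjusted p = 0.145). Its controls averaged 95.3 on high arrays and 63.7 on low ones. Across the 24 arrays the Junb pair correlated at r = 0.38, a description of arrays that share their scaling.

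**Figure D1:**
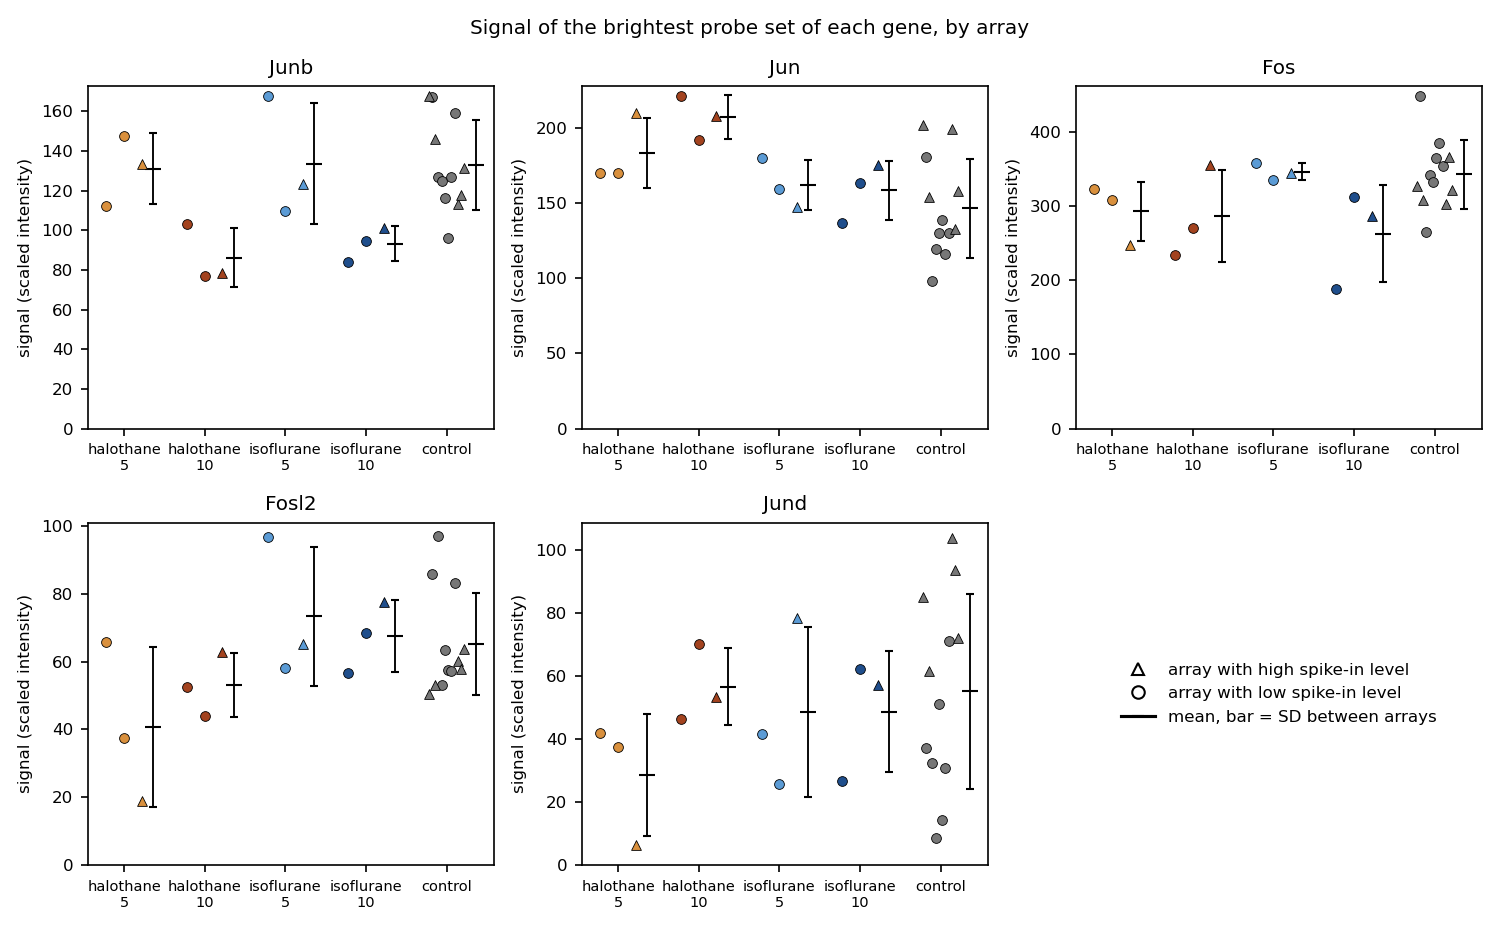
Signal (linear intensity, vertical axis) of the brightest probe set of Fos, Fosl2, Jun, Junb and Jund on each of the 24 arrays, by group, with points for arrays (triangles for a high and circles for a low spike-in level) and bars for group means with their SD. The Junb arrays of both 10-exposure groups sit between 76.8 and 103.3, at or below the low end of the controls.

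Jun averaged above controls in all 4 exposed groups at its main probe set, most after halothane. Its main probe set (rc_AI175959_at) had signals of 170.1, 170.0 and 210.4 after 5 halothane exposures, 221.3, 192.0 and 208.5 after 10 halothane exposures, 180.2, 159.7 and 147.4 after 5 isoflurane exposures and 136.8, 163.5 and 175.5 after 10 isoflurane exposures. Controls ran from 98.0 through 135.9 to 202.0. All 12 exposed arrays lay above the control median, and 2 of 3 arrays after 10 halothane exposures and 1 of 3 after 5 halothane exposures lay above the highest control.

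The mean Jun signal was 207.3 ± 14.7 after 10 halothane exposures and 158.6 ± 19.8 after 10 isoflurane exposures (SD, n = 3 each), against 146.8 ± 33.1 in controls. The difference from controls was 0.53 ± 0.17 (SE) after 10 halothane exposures (p = 0.0047, adjusted p = 0.398), 0.35 after 5 halothane exposures (p = 0.0511), 0.17 after 5 isoflurane exposures and 0.14 after 10 isoflurane exposures. All 4 exposed groups together differed by 0.30 ± 0.11 (p = 0.0106, adjusted p = 0.436). Signal at this probe set also moved with the spike-in level: controls averaged 169.3 on high arrays and 130.6 on low arrays. The difference after 10 halothane exposures was 0.68 among low arrays and 0.32 among high arrays, where that group has 1 array (208.5). It was 0.26 when the 4 Jun probe sets were averaged.

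The other Jun probe sets disagreed among themselves. The probe set rc_AA945867_at had 87.7, 93.6 and 108.9 after 5 halothane exposures, all above the 12 controls, which ran from 43.9 through 60.5 to 77.4. Such a gap upward occurred at 0.122% of all probe sets in that comparison. Its difference was 0.65 ± 0.20 (p = 0.00365, adjusted p = 1) after 5 halothane exposures and 0.43 after 10 (p = 0.0451, adjusted p = 0.66).

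The probe set rc_AA944014_at pointed down, with 36.7, 44.3 and 38.9 after 10 halothane exposures against controls from 31.1 through 56.25 to 61.9. Its differences were -0.035 after 5 halothane exposures, -0.35 after 10, -0.28 after 5 isoflurane exposures and -0.19 after 10. The probe set X17163cds_s_at had 49.7, 52.7 and 31.6 after 10 halothane exposures and 19.2, 31.2 and 16.5 after 10 isoflurane exposures, against controls from 15.6 through 31.85 to 65.5. Correlations among the 4 Jun probe sets over the 24 arrays ran from -0.27 to 0.30, so the 4 signals named Jun did not follow each other closely.

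Jund, the steady member, varied widely between arrays of the same group. Its probe set (D26307cds_at) had 41.8, 37.4 and 6.3 after 5 halothane exposures, 46.5, 70.2 and 53.3 after 10 halothane exposures, 41.6, 25.7 and 78.4 after 5 isoflurane exposures and 26.8, 62.1 and 57.2 after 10 isoflurane exposures. Controls ran from 8.7 through 56.25 to 103.9, and every group overlapped them. Differences were -0.69, 0.23, -0.12 and -0.06 in the same order, each with an SE of 0.49. High spike-in controls averaged 83.3 and low ones 35.1, and high arrays exceeded low ones by 0.75 (p = 0.0151, adjusted p = 0.0665), a larger difference than any of the 4 above. The high exposed arrays had 6.3, 53.3, 78.4 and 57.2. The 6.3, after 5 halothane exposures, and controls with 8.7 and 14.3 lay below 16.5, the lower limit to which signals were raised before testing. The -0.69 ran from -0.94 to -0.27 when 1 array was left out, and was 0.29 among low arrays.

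Fos, which needs a Jun partner to bind DNA, averaged less than controls after 10 exposures, with wide overlap. Its main probe set (X06769cds_g_at) had 322.4, 307.9 and 248.0 after 5 halothane exposures, 234.2, 269.7 and 355.0 after 10 halothane exposures, 358.0, 335.6 and 344.6 after 5 isoflurane exposures and 188.2, 312.2 and 286.9 after 10 isoflurane exposures. Controls ran from 264.7 through 336.65 to 448.7. Only 1 array after 10 isoflurane exposures, 1 after 10 halothane exposures and 1 after 5 halothane exposures lay below the lowest control.

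Mean Fos signal was 262.4 ± 65.5 after 10 isoflurane exposures and 286.3 ± 62.1 after 10 halothane exposures (SD, n = 3 each), against 342.9 ± 46.5 in controls. The differences were -0.41 ± 0.14 (p = 0.00935, adjusted p = 0.382) and -0.27 (adjusted p = 0.685), and joined they were -0.34 ± 0.11 (p = 0.00573, adjusted p = 0.192). After 5 exposures they were -0.23 with halothane and 0.02 with isoflurane. The joined difference was -0.51 among low spike-in arrays and -0.023 among high ones, each high arm resting on 1 array per agent. With array weights it was -0.44 with adjusted p = 0.0430. After 10 isoflurane exposures the difference was -0.18 without replicate 1 (188.2). After 10 halothane exposures it was -0.14 without replicate 1 (234.2) and -0.44 without replicate 3 (355.0). The other Fos probe sets gave -0.41 (X03347cds_g_at, whose name and annotated accession differ) and -0.63 (X06769cds_at) after 10 halothane exposures, and -0.42 and -0.45 after 10 isoflurane exposures. Their SEs were 0.25 and 0.38 for each agent. X03347cds_g_at had 144.0 on 1 array after 10 halothane exposures, above the highest control (125.8). X06769cds_at had 8.8 on 1 array after 10 isoflurane exposures, below the lower limit of 16.5. The 3 Fos probe sets correlated with one another at 0.33 to 0.65.

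**Figure D2:**
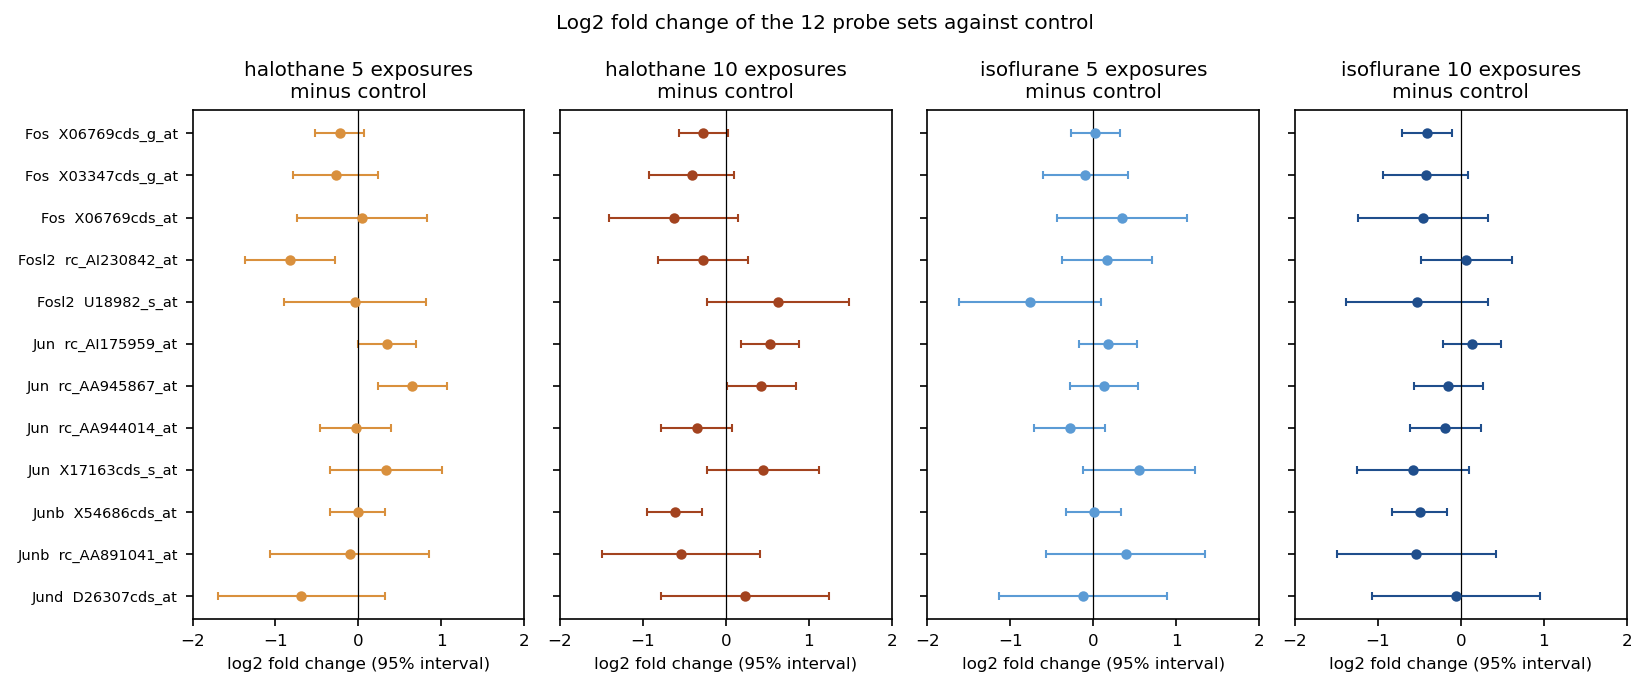
Difference from controls on the log2 scale (horizontal axis) for all 12 member probe sets in the 4 exposed groups, with 95% confidence intervals from limma. Both Junb probe sets lie left of 0 after 10 exposures of either agent, and the Jun probe sets spread to both sides.

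Fosl2, the slower Fos relative, had a pair of probe sets that did not follow each other (r = -0.13 over the 24 arrays). The main one (rc_AI230842_at) had 65.9, 37.4 and 18.8 after 5 halothane exposures and 96.7, 58.0 and 65.3 after 5 isoflurane exposures, against controls from 50.5 through 59.0 to 97.0. After 5 halothane exposures 37.4 and 18.8 lay below every control, and the third array lay among the controls. Its difference from controls after 5 halothane exposures was -0.83 ± 0.26 (p = 0.00434, adjusted p = 1). It was -0.36 without replicate 3 of that group, the high spike-in array with 18.8, and -1.27 without replicate 1. Among low arrays it was -0.48, and among high arrays, where 18.8 is the only array of that group, -1.60. After 10 exposures its signals were 52.6, 43.8 and 62.9 with halothane and 56.5, 68.5 and 77.6 with isoflurane.

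The other Fosl2 probe set (U18982_s_at) moved with the spike-in level among the controls. High arrays exceeded low ones by 0.78 ± 0.22 with adjusted p = 0.0149, the 1 of 12 members past the threshold beside 20.0% of all probe sets. High controls averaged 54.3 and low controls 16.5, without overlap, as at 1.03% of all probe sets. The lower limit set on all signals is also 16.5. Low controls with 14.3, 13.2, 12.0 and 12.4 lay below that limit and were raised to it for the test, so the 0.78 rests partly on raised values. The high exposed arrays had 21.5, 57.5, 17.2 and 8.4, and only 57.5, after 10 halothane exposures, lay within the range of the high controls. The low exposed arrays ran from 7.5 to 46.3, so the exposed arrays did not show the split of the controls. It had 46.3, 32.5 and 57.5 after 10 halothane exposures and 27.0, 17.3 and 8.4 after 10 isoflurane exposures, against controls from 12.0 through 23.45 to 62.2.

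**Figure D3:**
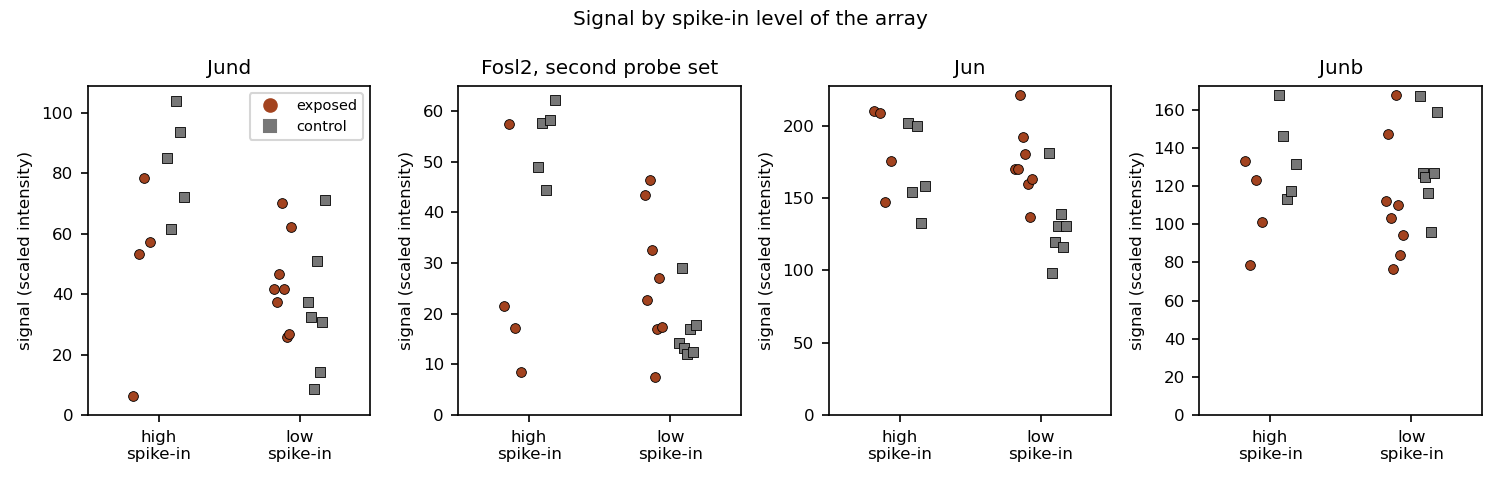
Signal (linear intensity, vertical axis) of Jund, the Fosl2 probe set U18982_s_at, Jun and Junb on arrays with a high and a low level of the bacterial spike-in probe sets, with circles for exposed arrays and squares for controls. The Fosl2 probe set U18982_s_at and Jund are higher on high control arrays (means of 54.3 and 83.3) than on low ones (16.5 and 35.1). The main Junb probe set, the one shown, is alike on both (135.3 and 131.1).

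Comparing 10 with 5 exposures leaves out the control means. The spread used in these tests still came from 1 fit to all 24 arrays, controls included. The 10-exposure arrays are the same as those compared with controls above. Junb was lower after 10 than after 5 exposures by -0.61 ± 0.20 with halothane (p = 0.00674, adjusted p = 1) and by -0.50 ± 0.20 with isoflurane (p = 0.022, adjusted p = 1). All 3 arrays after 10 halothane exposures (76.8 to 103.3) lay below all 3 after 5 (112.1 to 147.6), and all 3 after 10 isoflurane exposures (83.8 to 101.3) lay below all 3 after 5 (110.0 to 167.9). The isoflurane difference was -0.33 without replicate 1 of 5 isoflurane exposures (167.9). Gaps of that direction occurred at 5.32% of all probe sets with halothane and 3.78% with isoflurane. Fos was lower by -0.43 ± 0.18 with isoflurane (p = 0.0262, adjusted p = 1), or by -0.21 without replicate 1 of 10 isoflurane exposures, and the Jun probe set X17163cds_s_at by -1.12 (p = 0.0121, adjusted p = 1). After 10 isoflurane exposures that Jun probe set had 19.2, 31.2 and 16.5, the last at the lower limit set on all signals. Members called were 0 of 12 with halothane (background 0.0135%) and 0 of 12 with isoflurane (background 0%), and at an unadjusted p under 0.05 they were 1 of 12 (3.76%) and 3 of 12 (3.00%).

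The agents were set side by side at equal numbers of exposures, though their concentrations differ. After 10 exposures halothane exceeded isoflurane by 0.39 for the main Jun probe set (95% confidence interval -0.05 to 0.83), by 0.57 for rc_AA945867_at (p = 0.0336) and by 1.02 for X17163cds_s_at (p = 0.021), and the fourth Jun probe set, rc_AA944014_at, differed by -0.17. The Fosl2 probe set U18982_s_at differed by 1.16 (p = 0.0365). Its signal moved with the spike-in level among controls, and each of these 10-exposure groups held 1 high and 2 low arrays. On 1 array after 10 isoflurane exposures X17163cds_s_at was at the lower limit of 16.5, and U18982_s_at (8.4) lay below that limit on 1. Junb differed between the agents by -0.12 (interval -0.54 to 0.30), and Fos by 0.14 (interval -0.24 to 0.51). After 5 exposures the main Fosl2 probe set was lower with halothane by -0.99 (p = 0.00643), or by -0.53 without replicate 3 of 5 halothane exposures and -0.59 among low spike-in arrays. Adjusted p was 1 for each of these, and members called were 0 of 12 after 5 exposures (background 0.0135%) and 0 of 12 after 10 (background 0%). At an unadjusted p under 0.05 they were 1 of 12 (2.98%) and 3 of 12 (3.11%).

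Over the 12 probe sets the median difference from controls was -0.28 after 10 halothane exposures and -0.42 after 10 isoflurane exposures, against -0.033 and -0.0027 over all probe sets. After 5 exposures it was -0.041 with halothane and 0.077 with isoflurane. Probe sets of 1 gene share their target, so these medians do not rest on 12 separate genes. When groups were ordered by the mean of each gene's main probe set, neighbouring groups overlapped in range for Fos, Fosl2, Jun and Jund. For Junb the only gap lay between 5 halothane exposures (131) and 10 isoflurane exposures (93.2). That pair differs in agent as well as in number of exposures. How many of all probe sets show such a gap was not counted, so it does not set Junb apart.

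Other genes around AP-1 were read from 4 lists, and none of their probe sets passed the test. Of 38 other basic leucine zipper factors, 17 were measured, with medians of -0.15 after 10 halothane exposures and 0.0011 after 10 isoflurane exposures. Nfe2l2, the antioxidant response factor, averaged 61.4 after 10 halothane exposures and 52.1 after 10 isoflurane exposures, against 31.9 in controls. Its differences were 0.99 (adjusted p = 0.224) and 0.73 (adjusted p = 0.382). At an unadjusted p under 0.05 the list had 2 genes higher and 1 lower after 10 halothane exposures, and 3 higher and 0 lower after 10 isoflurane exposures, where 7.52% and 9.05% of all probe sets met that level.

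The MAP kinase route that acts on Fos and Jun had 22 of 52 genes measured, with medians of -0.077 and -0.093 after 10 halothane and 10 isoflurane exposures. Camk4, a calcium-dependent kinase of CREB, averaged 25.6 after 10 halothane exposures and 16.7 in controls, where it was close to the lower limit of 16.5 set on all signals, so no fold is given. Map2k2, a kinase of ERK, differed by -0.25 and -0.21. Genes known to carry AP-1 or related control sites had 30 of 39 measured, with medians of -0.0025 and -0.029. Pdyn, the dynorphin precursor, differed by -0.18 after 10 halothane exposures and by -0.37 after 10 isoflurane exposures (p = 0.000971, adjusted p = 0.291).

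Other fast activity genes had 23 of 34 measured, with medians of -0.15 and -0.17. Egr1, a zinc finger factor switched on together with Fos, averaged 801 after 10 halothane exposures and 770 after 10 isoflurane exposures, against 1105 in controls, differences of -0.47 and -0.51. Arc, which acts at synapses, differed by -0.41 after 10 halothane exposures. Btg1, which restrains cell growth, pointed the other way at 0.56 and 0.61. At an unadjusted p under 0.05 this list had 2 genes higher and 4 lower after 10 halothane exposures and 1 higher and 1 lower after 10 isoflurane exposures, where 7.52% and 9.05% of all probe sets met that level.

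Marker genes of other cell types also differed between groups. All 4 measured blood markers were lower than in controls after 10 exposures, with medians of -0.70 with halothane and -0.63 with isoflurane. Their summed signal was 437.2 to 470.2 after 10 halothane exposures and 388.1 to 658.9 after 10 isoflurane exposures, against 543.2 to 996.1 in controls. The 5 measured choroid plexus and ependyma markers had medians of 0.42 after 10 halothane exposures and 0.34 after 10 isoflurane exposures, where 1 was lower than in controls. After 5 exposures the medians were 0.31 with isoflurane and -0.10 with halothane, where 4 of the 5 were lower than in controls. Their sums were 4280 to 6874, 4410 to 5725, 4324 to 6526 and 1995 to 4226 in the order of these medians, against 3014 to 4912 in controls. Ttr alone averaged 3250 in controls, where the mean sum was 4024. All 7 measured myelin markers were lower than in controls after 10 halothane exposures (median -0.25) and lower than after 5 halothane exposures (median -0.26), and 5 of 7 were lower after 10 isoflurane exposures (median -0.011). The myelin sum was 7946 to 10836 after 10 halothane exposures and 9563 to 11756 after 10 isoflurane exposures, against 8430 to 12113 in controls. The ratio of 3′ to 5′ actin signal, a sign of RNA integrity, was 1.60 to 1.82 after 10 halothane exposures and 1.61 to 2.14 after 10 isoflurane exposures, against 1.36 to 2.10 in controls. No marker passed the test at the 1 probe set read for each gene, and their part in the Junb, Jun or Fos values was not tested.

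The probe sets whose pattern was most like each member were named by Pearson's r over the 24 arrays, as a description. For Junb they were Pex14 (r = 0.82), Slit1 (0.80) and Hspb1 (0.78), which were 0.74, 0.64 and 0.64 once group means were taken out. For Fos they were Hspb1 (0.74), Prkcd (0.74) and Nxpe5l3 (0.70). For Jun they were Ndufc1 (0.70), Tle5 (0.68) and Adipor2 (0.67). For Fosl2 they were Slc37a4 (0.82), Nkx2-5 (0.81) and Ccnb1 (0.79), and for Jund Reg3g (0.69) and 2 probe sets of Dbp (0.67 and 0.66). The arrays share their scaling and the spike-in split, and Fos and Junb correlated at 0.42 with each other, or 0.09 once group means were taken out.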

How the data were processed

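Total RNA of whole brain was measured on 24 single-colour arrays. The authors deposited linear intensity values, and their array software and settings are not given in the sources used here. Values were raised to the 25th percentile of the table (16.5) where lower and put on the log2 scale. Of 8799 probe sets, 59 control probe sets were left out, and 7389 above that level on at least 3 arrays were kept. limma 3.58.1 in R 4.3.3 (lmFit, and eBayes with an intensity trend) was fitted to 5 groups and 24 arrays for 10 comparisons, two-sided, with Benjamini-Hochberg adjustment over all 7389, and was tested on simulated data. Symbols came from the platform annotation: 6018 kept probe sets had 1 symbol, 267 several and 1104 none. All member probe sets are named; from each list, up to 4 genes with the lowest p in each 10-exposure comparison could be named. The members and lists were chosen with earlier results of these data known. Alternatives changed the normalization, lower limit, filter, variance model and arrays used. How many arrays there are limits the precision.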

Additional observations from a re-analysis of the deposited data

How the results depend on the processing

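The counts of members called stayed at 0 in all 10 comparisons under 15 alternatives (averaging a gene's probe sets gives no such count) and 24 fits that left out an array, except for 10 exposures of either agent against controls. There 2 members were called with array weights (Fos -0.44 and Junb -0.55, both adjusted p = 0.0430), 1 when the spike-in level was a block (Junb) and 0 to 1 when an array was left out, the 1 being Junb without control 7. Junb after 10 exposures ran from -0.91 to -0.54 with halothane, -0.79 to -0.40 with isoflurane and -0.85 to -0.52 joined (adjusted p 0.0412 to 0.383). The labels do not tie replicate numbers together. Deviations of same-numbered arrays correlated at -0.048 to 0.52 (median 0.17, 30 pairs), those of different numbers at -0.37 to 0.21 (median -0.13, 60 pairs), and 13 of 15 arrays correlated best with their own number. Deviations were taken from group means, so the negative median for different numbers follows from the positive one and is no separate sign. Replicate 3 of each exposed group and control 3 were high spike-in arrays. Whether the likeness by number goes beyond that split was not tested. Any pairing is a hint from the data, not the design, and not every same-numbered pair passed 0.1. A fit with the number as a block used only the 15 arrays numbered 1 to 3, so most controls were left out. In that fit Jun was 0.22 after 10 halothane exposures and Junb was -0.85 joined (adjusted p = 0.059). All probe sets called were 15 after 10 halothane exposures, 28 joined and 27 for all exposed groups, against 3, 9 and 0 in the main fit. It differs from the main fit in the controls used as well as in the block. The controls it kept had Junb signals of 168.0, 167.2 and 146.1, above the control median of 126.9. Over all settings the joined count ran from 0, without replicate 2 of 10 halothane exposures, to 72 with array weights. Of 740 gene values under alternatives, 54 turned sign, and the cause was not tested. Values are log2 differences; halothane or isoflurane with a number means that group against controls. Quantile normalization gave Junb 0.025 (halothane 5) and 0.016 (halothane against isoflurane 5). Median centring gave Junb 0.0086 (halothane 5), -0.012 (isoflurane 5) and 0.021 (halothane against isoflurane 5), and Jun 0.0061 (isoflurane 10 against 5). Jund was 0.034 (isoflurane 10) with the lower limit at the 10th percentile, and -0.012 (halothane 10) and -0.075 (10 of either) at the 40th. Array weights gave Junb 0.014 (halothane 5) and Fosl2 -0.0097 (isoflurane 10). Without controls 10 to 12, Junb was -0.035 (isoflurane 5) and Jund 0.18 (isoflurane 5), 0.24 (isoflurane 10) and 0.14 (all exposed). The replicate block, on arrays numbered 1 to 3 only, gave Jund -0.055 (halothane 10) and -0.20 (10 of either), and Fos -0.042 and Junb -0.28 (isoflurane 5). For Jun that fit gave -0.14 (isoflurane 5), -0.17 (isoflurane 10) and -0.013 (all exposed). The spike-in block gave Jund 0.0023 (isoflurane 10). Low spike-in arrays alone gave Jund 0.29 (halothane 5), 0.017 (isoflurane 5), 0.34 (isoflurane 10), 0.37 (all exposed) and 0.27 (halothane against isoflurane 5), Fos -0.022 (isoflurane 5), Fosl2 -0.16 (isoflurane 10) and -0.049 (halothane 10 against 5), and Junb 0.0013 (halothane against isoflurane 10). High spike-in arrays alone, an alternative chosen after seeing the data with 1 array per exposed group assumed to vary like the controls, gave Fos 0.13, Fosl2 0.15 and Jund -0.62 (halothane 10), Jun -0.18 and Junb -0.12 (isoflurane 5), Fosl2 0.30 and Jund -0.57 (10 of either), Junb 0.11 (halothane against isoflurane 5), Jund -0.10 (halothane against isoflurane 10), Fos 0.52 and Jun -0.013 (halothane 10 against 5), and Fosl2 0.25, Jun 0.25 and Jund -0.45 (isoflurane 10 against 5). Averaging a gene's probe sets gave Fosl2 0.17 (halothane 10), -0.30 (isoflurane 5), -0.23 (isoflurane 10), 0.41 (halothane against isoflurane 10) and 0.065 (isoflurane 10 against 5), Jun -0.19 (isoflurane 10) and -0.061 (halothane 10 against 5), and Fos -0.0092 (halothane against isoflurane 10). Leaving out an array gave ranges that cross 0 for Junb at -0.10 to 0.098 (halothane 5), -0.17 to 0.13 (isoflurane 5) and -0.14 to 0.16 (halothane against isoflurane 5), for Jund at -0.28 to 0.32 (isoflurane 10), -0.54 to 0.26 (isoflurane 5), -0.054 to 0.28 (10 of either), -0.094 to 0.51 (halothane against isoflurane 10) and -0.32 to 0.48 (isoflurane 10 against 5), for Fos at -0.0083 to 0.061 (isoflurane 5), -0.21 to 0.089 (halothane 10 against 5) and -0.086 to 0.28 (halothane against isoflurane 10), for Fosl2 at -0.25 to 0.12 (isoflurane 10 against 5), -0.037 to 0.19 (isoflurane 10) and -0.053 to 0.32 (isoflurane 5), and for Jun at -0.11 to 0.065 (isoflurane 10 against 5).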
